A study of Homo sapiens with 6 samples.

Results

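The genes described here are *CAMP*, *EPPIN*, *SLPI*, *PI3*, *LCN2*, *LTF*, *WFDC2* and *WFDC3*. They are 8 of the 58735 genes in the expression table, taken by their symbols. They were selected on the change of *CAMP* and its relatives in these same libraries, so their own differences between the groups are given as a description, without a test. RNA was measured in 3 libraries of wild strain TPC-1 cells, a human papillary thyroid carcinoma line, and in 3 libraries of *RRM2*-OE-TPC-1 cells, the same line made to overexpress *RRM2*, the small subunit of ribonucleotide reductase. The overexpressing cells carried a lentivirus with a CMV promoter and were selected with puromycin at 3 µg/mL. The wild strain was labelled WT, and cells with an empty vector were not analysed here, so *RRM2*, the virus and the selection cannot be told apart. Replicates are biological ones by the methods, which do not say whether they were separate cultures, so p-values measure the spread between these samples.

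*RRM2* was at 9.17, 9.05 and 8.52 FPKM (fragments per kilobase of gene per 1000000 reads) in TPC-1 and at 50.4, 47.5 and 47.2 FPKM in *RRM2*-OE-TPC-1, a log2 fold change of 2.43. The genotype label of *RRM2*-OE-TPC-1 replicates 2 and 3 read RRM3 and RRM4 where their titles read *RRM2*, and *RRM2* was high in all 3. Each library held 14317091 to 17084067 reads on genes. Of the thyroid follicular markers, *PAX8*, *FOXE1* and *HHEX* passed the filter on low values, and the defining genes *TG*, *TSHR* and *SLC5A5* stayed at or under 0.113 FPKM in every library. *NKX2-1* was at 0 throughout. Of 10 epithelial markers, *CDH1*, *EPCAM*, *KRT19*, *CLDN7* and *ESRP1* stayed at or under 0.125 FPKM in every library. *GRHL2* and *OVOL1* were at 0 throughout. The other 3, all keratins, passed the filter on low values. *KRT18* was at 39.4 to 43.0 FPKM in TPC-1 and at 83.7 to 85.9 FPKM in *RRM2*-OE-TPC-1. *KRT8* was at 2.32 to 2.75 and 3.38 to 3.60 FPKM, and *KRT7* at 1.05 to 1.30 and 0.980 to 1.03 FPKM.

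Epithelia and neutrophils defend surfaces with small secreted proteins. *CAMP* encodes the only human cathelicidin, a precursor from which proteases release the membrane-active peptide LL-37. Proteins with a WAP domain, a short fold held by disulfide bonds between its cysteines, act mainly as inhibitors of serine proteases, and several also kill bacteria. *SLPI*, *PI3* (elafin), *EPPIN*, *WFDC2* and *WFDC3* belong to them, and their genes lie together in the WFDC locus on chromosome 20q13.12. *LCN2* and *LTF* encode lipocalin 2, which binds bacterial siderophores, and lactoferrin, which binds iron. They are products of neutrophil granules and of epithelium.

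The coding parts of 4 exons show what annotated transcripts of *CAMP*, *EPPIN* and *SLPI* encode. They were taken from the GENCODE 29 transcripts on GRCh38. RNA was counted per gene, so which transcripts of a gene fell was not measured. In exon 4 of *CAMP*, at chr3:48225293-48225421 on the plus strand, capitals mark the last 37 codons, which encode LL-37. In exon 2 of *EPPIN*, at chr20:45545639-45545770, and in exons 2 and 3 of *SLPI*, at chr20:45253575-45253733 and chr20:45253002-45253151, all on the minus strand, capitals mark the cysteine codons of the WAP domain, found as TGT or TGC in the reading frame.
CAMP exon 4: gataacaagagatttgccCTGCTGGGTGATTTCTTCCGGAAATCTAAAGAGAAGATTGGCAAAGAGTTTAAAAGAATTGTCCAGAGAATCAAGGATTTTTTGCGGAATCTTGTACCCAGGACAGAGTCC
EPPIN exon 2: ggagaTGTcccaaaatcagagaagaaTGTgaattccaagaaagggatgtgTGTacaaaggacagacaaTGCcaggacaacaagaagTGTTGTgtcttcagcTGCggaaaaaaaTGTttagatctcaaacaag
SLPI exon 2: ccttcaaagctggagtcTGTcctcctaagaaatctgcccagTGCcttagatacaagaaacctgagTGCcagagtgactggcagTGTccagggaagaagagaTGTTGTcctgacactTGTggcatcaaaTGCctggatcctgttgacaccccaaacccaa
SLPI exon 3: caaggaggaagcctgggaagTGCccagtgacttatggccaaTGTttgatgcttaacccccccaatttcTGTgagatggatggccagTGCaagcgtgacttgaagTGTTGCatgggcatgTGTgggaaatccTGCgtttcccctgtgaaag
Each WAP exon held 8 cysteine codons. Their spacing from the third cysteine on was the same in all 3 exons, with 5, 5, 0, 3 and 3 codons between neighbours. The first and second gaps differed, at 6 and 7 codons in *EPPIN*, 7 and 7 in *SLPI* exon 2 and 6 and 8 in *SLPI* exon 3. Exon 2 of *EPPIN* is also an exon of *EPPIN-WFDC6*, a readthrough gene on the same strand, so reads on it could be counted for either or for neither.

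*CAMP* (ENSG00000164047) lies on chromosome 3 from 48223347 to 48225491 on the plus strand. Its level in TPC-1 was 20.3, 19.6 and 20.4 FPKM, from 252, 245 and 242 reads. In *RRM2*-OE-TPC-1 it was 0, 0.313 and 0 FPKM, and its 4 reads all came from replicate 2. The groups did not overlap, and all 3 TPC-1 libraries were close together. The 0 reads of replicates 1 and 3 allow a level of up to 0.279 and 0.253 FPKM (the level that 3 reads would give). The mean fell from 20.1 ± 0.448 to 0.104 ± 0.181 FPKM (SD, n = 3), and the log2 fold change, computed as all others here on log2(FPKM + 0.1), was -6.97 with a standard error of 0.493. It was the lowest of the 13621 genes tested. Relative to the reads on all genes, *CAMP* had 185 times more reads in TPC-1, with a 95% interval of 71.9 to 680. Intervals of read ratios here are exact binomial ones and cover counting error only. Since *CAMP* in *RRM2*-OE-TPC-1 rested on 4 reads, the size of the fold depended on the pseudocount: the log2 fold change was -4.27 with a pseudocount of 1 and -9.30 with 0.01. In bulk RNA, fewer cells that express a gene and less RNA per cell cannot be told apart.

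*EPPIN* (ENSG00000101448), the epididymal protease inhibitor known from the sperm surface, lies on chromosome 20 from 45540626 to 45547752 on the minus strand. It was at 3.14, 4.03 and 3.31 FPKM in TPC-1, from 327, 423 and 329 reads, and at 0.0665, 0.0749 and 0.101 FPKM in *RRM2*-OE-TPC-1, from 6, 8 and 10 reads. Every *RRM2*-OE-TPC-1 library was far under every TPC-1 library. Its mean went from 3.49 ± 0.473 to 0.0807 ± 0.0178 FPKM (SD, n = 3), with a log2 fold change of -4.31 (standard error 0.162), the 7th lowest of all genes tested. The read ratio was 45.0, with an interval of 30.1 to 70.5. The FPKM of *EPPIN* was divided by 6238 exon bases, the union over its transcripts, whereas the transcript shown above has 1987 bases. Of the exon bases, 460 are shared with *EPPIN-WFDC6*.

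*SLPI* (ENSG00000124107), the secretory leukocyte protease inhibitor of mucosal fluids, was by far the most abundant of these genes. It lies on chromosome 20 from 45252239 to 45254564 on the minus strand. Its level was 382, 353 and 389 FPKM in TPC-1 and 155, 126 and 131 FPKM in *RRM2*-OE-TPC-1, from 3534 to 3795 and from 1244 to 1331 reads. The groups did not overlap, but in contrast to *CAMP* and *EPPIN* the transcript stayed abundant. By mean FPKM, *SLPI* went from rank 59 to rank 204 among the 30958 genes above 0. The mean fell from 374 ± 19.4 to 137 ± 15.1 FPKM (SD, n = 3), a log2 fold change of -1.45 with a standard error of 0.0767, the 423rd lowest. Its read ratio was 2.85, with an interval of 2.75 to 2.96.

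The other 5 genes were near the floor in both groups. *PI3* (ENSG00000124102, chromosome 20 from 45174876 to 45176544, plus strand) was at 0 in all TPC-1 libraries, which allows up to 0.326 FPKM, and had 1, 1 and 4 reads in *RRM2*-OE-TPC-1, or 0.120, 0.101 and 0.435 FPKM. The groups did not overlap and the direction was opposite to that of *SLPI*. The ratio of its reads, TPC-1 over *RRM2*-OE-TPC-1, was 0 with an interval of 0 to 0.85, which covers counting error only. With 6 reads against 0, no fold is given. *LCN2* (ENSG00000148346, chromosome 9 from 128149071 to 128153455, plus strand) was at 0.600, 0.186 and 0.236 FPKM in TPC-1 and at 0.216, 0.511 and 0.471 FPKM in *RRM2*-OE-TPC-1. The groups overlapped, since TPC-1 replicate 1 was the highest and TPC-1 replicate 2 the lowest of all 6 libraries. The ratio of its reads, 27 to 31, was 0.871 with an interval of 0.50 to 1.51, so a change of that range in either direction was not detectable at this depth.

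*WFDC3* (ENSG00000124116, chromosome 20 from 45747944 to 45791932, minus strand) was at 0.299, 0.272 and 0.365 FPKM in TPC-1 and at 0.259, 0.413 and 0.522 FPKM in *RRM2*-OE-TPC-1. These ranges overlapped, and the ratio of 37 to 46 reads was 0.805 with an interval of 0.508 to 1.27. *WFDC2* (ENSG00000101443, chromosome 20 from 45469706 to 45481532, plus strand), which encodes the serum tumour marker HE4, had 0, 2 and 2 reads in TPC-1 and 0, 0 and 1 in *RRM2*-OE-TPC-1. *LTF* (ENSG00000012223, chromosome 3 from 46435645 to 46485234, minus strand) had 1 read in each group. Neither had the reads to show a difference.

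**Figure D1:**
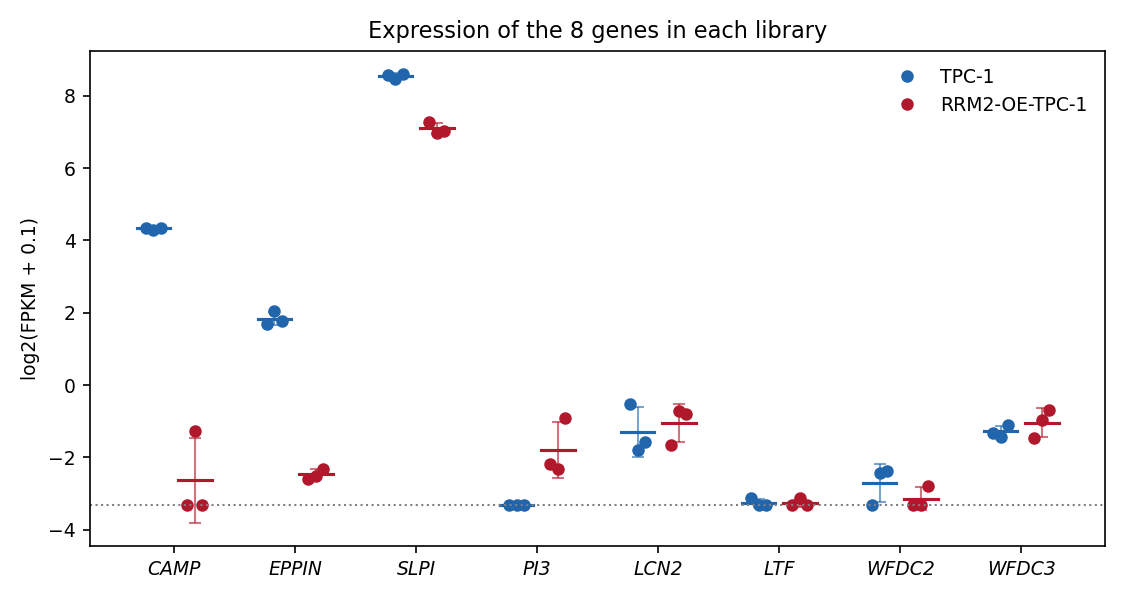
Level of each of the 8 genes on the y axis, as log2(FPKM + 0.1), in the 3 TPC-1 libraries (blue) and the 3 *RRM2*-OE-TPC-1 libraries (red); horizontal lines are means, error bars SD, and the dotted line is a level of 0 FPKM. *CAMP*, *EPPIN* and *SLPI* are lower in every red library, *PI3* is above 0 only in red ones, and *LCN2*, *LTF*, *WFDC2* and *WFDC3* overlap.

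Across all genes, limma tested 13621 that reached 0.5 FPKM and 10 reads in at least 3 libraries. A call required an adjusted p of at most 0.05 together with a log2 fold change of at least 1 in size. Calls in either direction took 11.5% of the genes tested, calls lower in *RRM2*-OE-TPC-1 6.97% and calls higher 4.48%. The groups did not overlap for 72.2% of the genes tested, so non-overlap was common. *CAMP*, *EPPIN* and *SLPI* passed the filter and were called lower, and the other 5 did not pass. Since *CAMP* and *EPPIN* passed through the TPC-1 libraries and the genes were selected on this contrast, nothing is read from that count.

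The decrease of *EPPIN* was shared by its neighbours. From *WFDC8* to *WFDC6*, 45.1 kb of chromosome 20 from 45534196 to 45579326 hold 8 annotated genes, all on the minus strand. The bounds of this stretch were set after the values were seen, and no test is given for its sum. Over these 8 genes TPC-1 had 613, 792 and 602 reads and *RRM2*-OE-TPC-1 had 12, 15 and 24. Per 1000000 reads on genes this was 42.3 ± 6.18 against 1.07 ± 0.372 (SD, n = 3). The groups were far apart, and TPC-1 replicate 2 was the highest. The total of 2007 against 51 reads gave a ratio of 39.4, with an interval of 29.8 to 53.1.

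*WFDC8* begins the stretch, 3.40 kb upstream of *EPPIN*, and encodes another protein with WAP domains. It was at 4.94, 5.72 and 5.17 FPKM in TPC-1 and at 0.136, 0.191 and 0.369 FPKM in *RRM2*-OE-TPC-1. Its log2 fold change was -4.08 (standard error 0.237). *WFDC6*, 1.13 kb downstream of *EPPIN*, went from 5.75, 8.18 and 5.86 FPKM to 0, 0.147 and 0.0792 FPKM, with a log2 fold change of -5.33 (standard error 0.317). Both genes were lower in all 3 *RRM2*-OE-TPC-1 libraries. *EPPIN-WFDC6* fell from 83 to 4 reads, with a log2 fold change of -3.38. Like *WFDC8* and *WFDC6*, it passed the filter through the TPC-1 libraries alone and could only be called lower, so no p-value is given for them. *EPPIN-WFDC6* shares 460 exon bases with *EPPIN* and 131 with *WFDC6*, so its value is not independent of theirs. The pseudogene *HSPD1P21* had 151 and 3 reads. As a processed copy of the HSP60 gene, it can share reads with near-identical copies and is uncertain. The pseudogene *AL031663.1* went from 35 reads to 0 and did not pass the filter.

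The tested genes on either side of this stretch did not follow it. *PIGT*, 83.7 kb downstream of *EPPIN*, had a log2 fold change of -0.32 and was not called. *DNTTIP1*, 244 kb upstream, had 0.35 and was not called. Between *EPPIN* and *SLPI*, *SDC4*, the cell surface proteoglycan syndecan 4, was at 133 to 141 FPKM in TPC-1 and 131 to 142 FPKM in *RRM2*-OE-TPC-1, which overlap, with a log2 fold change of -0.02. In the whole locus, taken from the outermost WAP genes with 100000 bases on each side, 58 genes were annotated and 20 tested. Of these, 7 were called lower and 0 higher, which is 35% beside 11.5% of all genes tested. Without *EPPIN* and *SLPI* 5 of 18 were called lower. Without the filter on low values 10 were called, among them *PI3* as higher. Of those 5, *WFDC8*, *WFDC6*, *EPPIN-WFDC6* and *HSPD1P21* lie in the stretch around *EPPIN*, and *SPATA25* (log2 fold change -1.41) lies 339 kb from *EPPIN*. Those 4 passed the filter through the TPC-1 libraries alone, which left a decrease as the only possible call. The median log2 fold change of the 18 was 0.01, as over all genes tested, where it was 0.01 too.

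**Figure D2:**
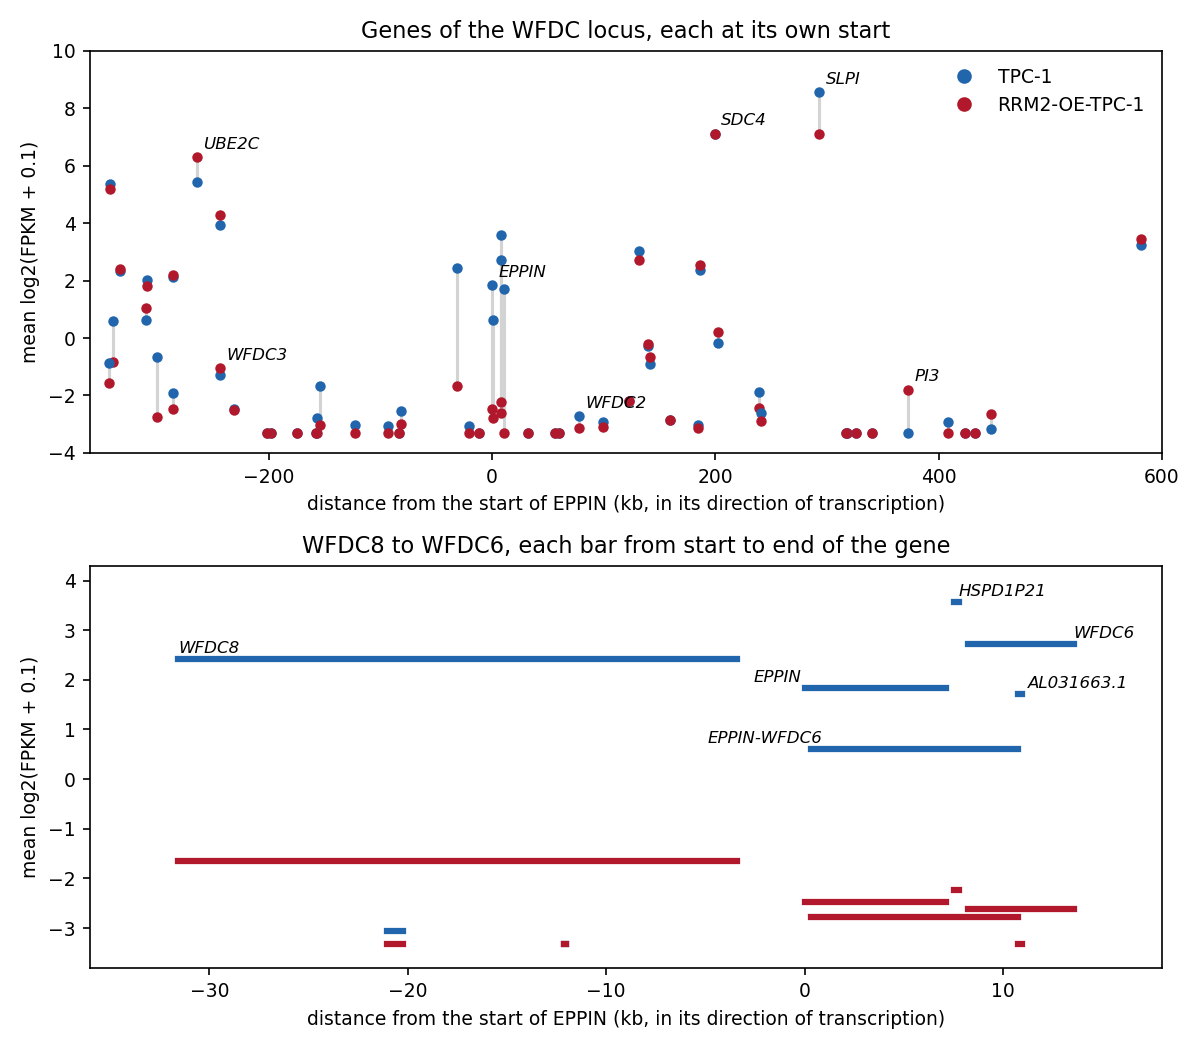
Mean log2(FPKM + 0.1) over the 3 TPC-1 (blue) and the 3 *RRM2*-OE-TPC-1 libraries (red) on the y axis, against the distance in kb from the start of *EPPIN* along its direction of transcription; the upper panel shows each annotated gene as a point at its start, the lower panel each gene of the 45.1 kb around *EPPIN* as a bar from start to end. *WFDC8*, *EPPIN*, *EPPIN-WFDC6*, *HSPD1P21* and *WFDC6* are low in red and high in blue, whereas *SDC4* is at the same height in both.

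Around *CAMP*, genes moved in both directions. Within 500000 bases on either side, 46 other genes were annotated and 19 tested, of which 3 were called higher and 1 lower. Calls thus took 21.1% of these 19, beside 11.5% of all genes tested. The median log2 fold change of the 19 was 0.19. The nearest tested gene, *ZNF589*, 15.6 kb downstream, had -0.52 (limma adjusted p = 0.00136) and was not called. On the other side and on the opposite strand, 34.9 kb away, *CDC25A*, a phosphatase that drives the cell cycle, rose by 1.59 (limma adjusted p = 4.07e-07), from 3.31 ± 0.238 to 10.1 ± 0.204 FPKM (SD, n = 3). *UCN2* (1.17) and *ATRIP* (1.00) were also called higher, and *CELSR3* (-1.23) lower. *CELSR3* passed the filter through the TPC-1 libraries alone and could only be called lower. *ATRIP* was at the threshold, and its call was lost with library totals and without TPC-1 replicate 2, TPC-1 replicate 3 or *RRM2*-OE-TPC-1 replicate 2, which left 3 called neighbours. With a pseudocount of 1 the calls of *UCN2* (0.90), *ATRIP* (0.72) and *CELSR3* (-0.56) were lost. *UCN2* shares 289 exon bases with *PFKFB4* on the same strand, so its value is uncertain. *ATRIP* shares 1515 with *TREX1*, also on the same strand, and these are all the exon bases of *TREX1*. The level of 0 for *TREX1* in every library therefore does not show that it was silent, and the value of *ATRIP* is uncertain too. No exon of another annotated gene overlaps *CAMP*.

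**Figure D3:**
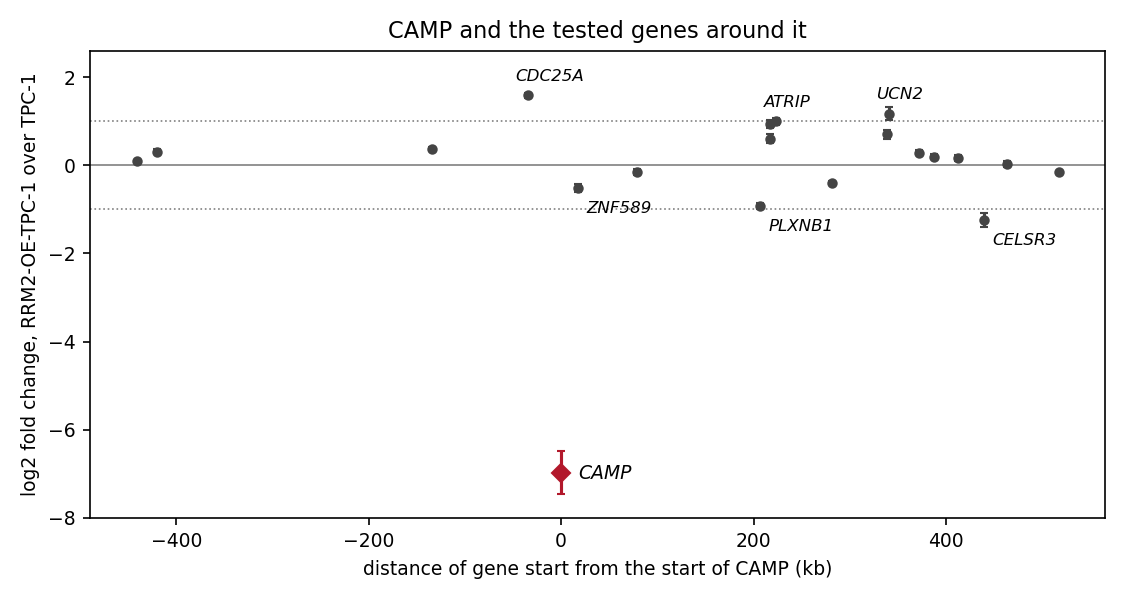
Log2 fold change of *RRM2*-OE-TPC-1 over TPC-1 (y axis, with its standard error) for *CAMP* (red diamond) and the 19 tested genes around it (grey), by the distance in kb of each gene's start from that of *CAMP*; dotted lines are at -1 and 1. *CAMP* lies at -6.97, and its neighbours between *CELSR3* at -1.23 and *CDC25A* at 1.59.

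Further groups of genes were taken from lists made for these genes' biology. Of 19 WAP domain genes, 5 were tested and all 5 were called lower, *SLPI*, *EPPIN*, *WFDC8*, *WFDC6* and *EPPIN-WFDC6*, of which 4 lie in the one stretch at 20q13.12 and 2 are among the 8 selected genes. Except for *SLPI*, all of them passed the filter through the TPC-1 libraries alone and could only be called lower, so nothing is read from this count or from the median. Without the filter, 6 were called, and *PI3*, the added one, was higher. Their median log2 fold change was -4.08, and 5 of the 19 were at 0 in every library. The other 14 did not pass the filter, and none exceeded 0.522 FPKM in any library. Over 48 epithelial antimicrobial genes, 6 were tested, *CAMP* and *SLPI* were called lower and *CST6* higher. Calls took 50% of the 6, beside 11.5% of all genes tested, and *CAMP* and *SLPI* are among the selected genes. *CST6*, a secreted inhibitor of cysteine proteases, was low at 0.346 ± 0.117 FPKM in TPC-1 and 1.28 ± 0.174 FPKM in *RRM2*-OE-TPC-1 (SD, n = 3), with a log2 fold change of 1.65 (limma adjusted p = 0.000252). It passed the filter through the *RRM2*-OE-TPC-1 libraries alone, and with a pseudocount of 1 its log2 fold change was 0.76 and the call was lost. *ADM* (-0.08), *CST3* (0.06) and *LEAP2* (-0.60) were not called. The defensins *DEFB1*, *DEFB4A* and *DEFB103A*, along with *LYZ* and *S100A7*, were among 29 genes of the list at 0 in every library. *S100A8*, a subunit of calprotectin, was at 0.417, 0.355 and 0.624 FPKM in TPC-1 and at 0 in every *RRM2*-OE-TPC-1 library, a total of 23 against 0 reads. It did not pass the filter. *S100A9*, the other subunit, had 5 reads in each group.

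Cathelicidin, lactoferrin and lipocalin 2 are also stored in neutrophil granules, so the level of neutrophil and myeloid markers was measured. Of 25 markers, 1 was tested, *ITGB2*, with a log2 fold change of 0.59 and no call. The summed level of all 25 was 1.67 to 2.52 FPKM in TPC-1 and 1.69 to 1.86 FPKM in *RRM2*-OE-TPC-1. Of them, 9 were at 0 in every library, among them the defining genes *MPO*, *CTSG* and *CEACAM8*. *ELANE* was at or under 0.366 FPKM and *PTPRC* at or under 0.00685 FPKM. The sum of the markers was thus below the level of *CAMP* alone in every TPC-1 library. *AZU1*, a granule protein, was at 0.571, 1.03 and 0.387 FPKM in TPC-1 and at 0.155, 0.131 and 0.0704 FPKM in *RRM2*-OE-TPC-1, without overlap and under the filter. *CD177*, a neutrophil surface protein, went the other way without overlap, from 0.0958, 0.0951 and 0.0502 FPKM to 0.387, 0.490 and 0.376 FPKM, and *ITGAM*, an integrin of myeloid cells, from 3 to 19 reads.

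A list of 22 genes was made around vitamin D signalling and the C/EBP family, bZIP transcription factors of epithelial and myeloid genes. It also held other genes, such as *SPI1*, *GFI1*, *CD14*, *TREM1* and *HIF1A*, and not all of its genes are regulators of cathelicidin. Of 11 tested, 3 were called lower and 0 higher, which is 27.3% beside 11.5% of all genes tested. Their median log2 fold change was -0.69, and that of all genes tested was 0.01. The 3 called genes were of the C/EBP family. *CEBPB* was at 81.4, 78.0 and 87.8 FPKM in TPC-1 and at 30.0, 25.8 and 26.2 FPKM in *RRM2*-OE-TPC-1, a log2 fold change of -1.59 (standard error 0.0665, limma adjusted p = 4.91e-07). *CEBPD* was at 64.8, 60.5 and 64.1 FPKM and then at 22.4, 21.3 and 20.9 FPKM, a log2 fold change of -1.55 (limma adjusted p = 6.32e-08). *CEBPG* was at 24.2, 21.8 and 23.2 FPKM and then at 10.6, 9.59 and 10.3 FPKM, a log2 fold change of -1.17 (limma adjusted p = 7.94e-07). None of these groups overlapped. *CEBPA*, at 1.47 ± 0.130 and 1.24 ± 0.0872 FPKM, had -0.22 and did not pass the test (limma adjusted p = 0.116). The vitamin D receptor gene *VDR* had 0.51, its partner *RXRA* -0.03, and *HIF1A*, the hypoxia factor, -0.69, none of them called.

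Promoter sequence was searched in the RefSeq promoter table (250 bases before to 50 bases after each start), which held 6 of the 8 genes. The C/EBP letters TTNNGNAA, on either strand, stood in the windows of *EPPIN*, *LCN2*, *WFDC2* and in 2 of 3 windows of *LTF*, and were not in those of *CAMP* and *WFDC3*. They stood in 36.8% of all 35116 windows. The vitamin D receptor letters AGTTCA and GGTTCA were in no window of the 6 genes and stood in 10.4% and 8.62% of all windows. Sequence outside these windows was not searched, so the lack of a match does not show that a gene lacks such a site. The motifs were chosen after the values above were known, and a match is a description only.

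NF-kB and the cytokine IL-17 induce *LCN2* and elafin in epithelium. Of 24 genes of these pathways, 15 were tested, 3 were called lower and 1 higher, with a median log2 fold change of 0.01. Calls took 26.7% of the 15, beside 11.5% of all genes tested. *IL1R1*, the receptor for interleukin 1, fell from 22.2 ± 0.678 to 3.87 ± 0.285 FPKM (SD, n = 3; log2 fold change -2.49, limma adjusted p = 4.29e-08). *TLR5*, the flagellin receptor, fell by 1.91 on the log2 scale and *ELF3*, an epithelial ETS factor, by 1.06. Both calls were lost with a pseudocount of 1, where the log2 fold changes were -0.88 and -0.90. *TLR5* passed the filter through the TPC-1 libraries alone and could only be called lower. *IL6* rose from 3.78 ± 0.335 to 9.21 ± 0.736 FPKM (SD, n = 3; log2 fold change 1.26, limma adjusted p = 5.28e-06). *IL1A*, which encodes interleukin 1 alpha, was low and did not pass the filter. It was at 0, 0 and 0.0295 FPKM in TPC-1 and at 0.358, 0.330 and 0.296 FPKM in *RRM2*-OE-TPC-1, without overlap. Without the filter it was called higher. The subunit genes *NFKB1* (0.01), *RELA* (0.14), *RELB* (0.30) and *NFKB2* (0.25) were not called.

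Of 31 receptors, processing proteases and partners of these proteins, 11 were tested, 1 was called lower and 1 higher. Calls took 18.2% of the 11, beside 11.5% of all genes tested. *CLU*, which encodes clusterin, a partner of EPPIN on sperm, fell from 340 ± 6.24 to 88.3 ± 1.01 FPKM (SD, n = 3; log2 fold change -1.94, limma adjusted p = 9.81e-09). *TFRC*, the transferrin receptor, rose by 1.09. *ANXA2*, which binds SLPI at the cell surface, went from 125 ± 2.98 to 240 ± 0.603 FPKM (SD, n = 3), a log2 fold change of 0.94, under the fold needed for a call. *EGFR* (0.27), which LL-37 is known to transactivate, *FURIN* (-0.42) and *GRN* (-0.10), whose product SLPI protects from cleavage, were not called. Among the cell markers, 0 of 3 tested thyroid genes were called, and of 3 tested epithelial genes *KRT18* rose by 1.05, a call lost with scaling to library totals. Their part in the values of the 8 genes was not tested.

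**Figure D4:**
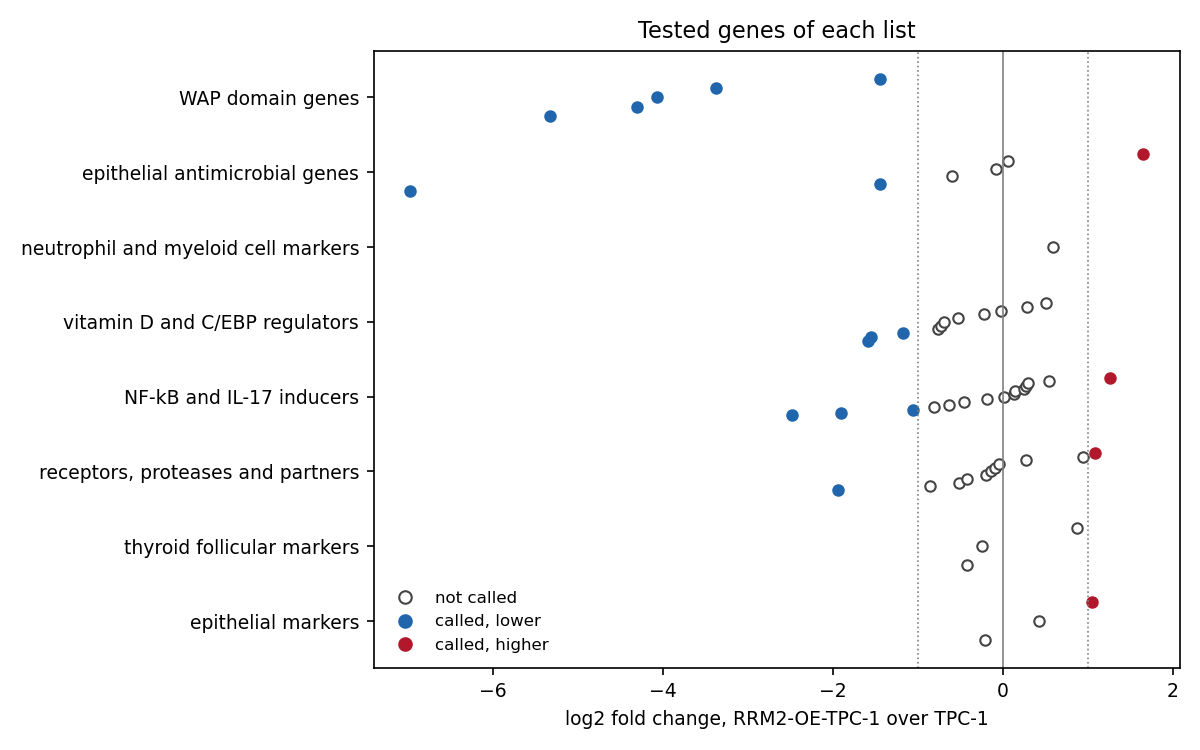
Log2 fold change of *RRM2*-OE-TPC-1 over TPC-1 (x axis) of each tested gene in the 8 gene lists (rows); blue points were called lower, red points higher and open circles were not called, with dotted lines at -1 and 1. All 5 WAP domain genes are blue, 3 C/EBP genes are blue among the vitamin D and C/EBP regulators, and the thyroid row has open circles only.

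The genes most like *CAMP* and *EPPIN* over the 6 libraries were found by the mean absolute difference of log2 values, each gene taken relative to its own mean in TPC-1. Nearest to *CAMP* were *AL451069.3*, *WFDC6* and *C5AR1*, at 0.857, 0.942 and 1.05. *C5AR1*, the receptor for the complement fragment C5a, was at 9.14, 8.46 and 7.57 FPKM in TPC-1 and at 0.141, 0.198 and 0.170 FPKM in *RRM2*-OE-TPC-1. Nearest to *EPPIN* were *CDH16*, *WFDC8* and *CRTAM*, at 0.174, 0.176 and 0.265. *CDH16*, a cadherin of kidney and thyroid epithelium, was at 9.52, 9.73 and 8.92 FPKM in TPC-1 and at 0.568, 0.351 and 0.464 FPKM in *RRM2*-OE-TPC-1. These genes were chosen for their likeness, and their levels are a description. No other gene tested had as low a log2 fold change as *CAMP*.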

How the data were processed

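The authors prepared libraries of 3 wild strain TPC-1 and 3 *RRM2*-OE-TPC-1 samples. The methods describe selection of poly(A) RNA, whereas the labels describe removal of rRNA and digestion with RNase R. Which was used is not settled here, and RNase R would lower linear mRNA. The submitters' processing notes list HISAT2 2.0.5, featureCounts 1.5.0, DESeq2 1.20.0 and GRCh38.p14, and whether strand was used in counting is not given in the sources used here. The deposited values are FPKM, that is reads per gene divided by gene length and depth. All 58735 identifiers and positions matched GENCODE 29. The FPKM times gene length were whole multiples of the value of 1 read for 100% of values (tolerance 0.01 read), which gave reads per gene.

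Groups came from the sample titles. log2(FPKM + 0.1) was fitted with limma 3.58.1 in R 4.3.3 (lmFit, eBayes with trend), on genes with at least 0.5 FPKM and 10 reads in at least 3 libraries, with two-sided Benjamini-Hochberg adjusted p-values. The procedure was tested on simulated data. Ratios of reads were scaled to total reads, with exact 95% binomial intervals. A permutation test of 3 against 3 cannot go below p = 0.1, so none was run. Replicates differed beyond sampling noise (chi-square per degree of freedom 1.81 to 5.68). The upper end came from *RRM2*-OE-TPC-1 replicate 1, with 5.02 and 5.68 against replicates 2 and 3. Replicates 2 and 3 of that group gave 1.81, and the TPC-1 pairs 2.92 to 3.08. Alternatives were pseudocounts of 1 and 0.01, no filter, other scalings, limma voom on the recovered reads (1732 genes called against 1560), a replicate block and leaving out each library over the same 13621 genes. Python 3.11.15 with pandas 2.3.3 and scipy 1.17.1 was used for the rest.

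The 8 genes and all lists were chosen with earlier results of these data known. Of each list the called genes were named, at most 6 by absolute log2 fold change, with at most 4 of the highest marker genes, the called and nearest genes of each neighbourhood and the 3 genes most like *CAMP* and *EPPIN*. Other genes named with values were chosen after their values were seen.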

Additional observations from a re-analysis of the deposited data

How the results depend on the processing

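*CAMP*, *EPPIN* and *SLPI* were selected on this contrast, so nothing is read from their calls under the alternatives, and only the size is described. The log2 fold change of *CAMP* moved from -6.97 to -4.27 with a pseudocount of 1 and to -9.30 with 0.01, and that of *EPPIN* from -4.31 to -2.05 and -5.28. With voom they were -7.83 and -5.36. Without 1 library in turn, the values ranged from -7.66 to -6.63 for *CAMP*, from -4.39 to -4.21 for *EPPIN* and from -1.54 to -1.39 for *SLPI*. Without *RRM2*-OE-TPC-1 replicate 2, *CAMP* had 0 reads in that group. Counts of called genes moved as follows. With a pseudocount of 1, 716 genes were called instead of 1560, 2 instead of 4 of the NF-kB and IL-17 genes, 1 instead of 4 of the neighbours of *CAMP*, 2 instead of 3 epithelial antimicrobial genes and 6 instead of 7 genes of the WFDC locus. Without a threshold on the fold, 9207 were called. Without the filter on low values, 5 epithelial antimicrobial genes (*S100A8* and *PI3* added) and 2 neutrophil and myeloid markers (*AZU1* and *CD177*) were called. So were 1 thyroid marker (*SLC26A4*) and 5 of the NF-kB and IL-17 genes (*IL1A* added as higher). With *PI3* as higher, 4 of the 8 genes, 6 WAP domain genes and 10 genes of the WFDC locus were called too. With library totals, 3 neighbours of *CAMP* and 0 epithelial markers were called. The cause of these moves, apart from the thresholds themselves, was not tested. Leaving out 1 library gave 1573 to 1608 calls, and 3 to 4 among the neighbours of *CAMP*. Same-numbered replicates did not deviate together (correlations -0.0105, -0.00602 and -0.0550), so no shared replicate effect was seen. Whether they were prepared together is not given in the sources used here. A fit with the replicate block called 1566 genes, 3 of the 8 genes among them. *PI3*, *WFDC2* and *LTF* rest on 6 reads or fewer per group, and depth limits what can be said of them.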
